A study of Mus musculus and Bos taurus with 26 samples.

Results

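The transcripts of 10 pluripotency transcription factors were followed through 26 libraries of polyA RNA from whole embryos, 22 from mouse and 4 from cattle. The factors were Pou5f1, Sox2, Nanog, Klf4, Klf5, Esrrb, Tfcp2l1, Tbx3, Prdm14 and Zfp42. They were taken by gene symbol, and all 10 were present among the 27988 mouse genes and, in upper case, among the 21577 bovine genes. In mouse, all 10 were among the 17336 genes tested, which had at least 1 FPKM (fragments per kilobase of transcript, scaled to library size) in at least 2 libraries. In cattle, 9 of the 10 were among the 12590 genes tested, and TFCP2L1 was not.

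Each group had 2 libraries. Mouse zygotes were injected with water, with mRNA of wild-type (WT) or mutant Hdac1, or with mRNA of WT or mutant Hdac2, and were taken at the late 2-cell stage, 36 h after fertilization. Embryos given WT or mutant Hdac1 mRNA were also taken at the early 2-cell stage, 24 h after fertilization. In a further pair of groups, mutant Hdac1 mRNA in the zygote was followed by water or by Kdm5b mRNA in both blastomeres at the early 2-cell stage, with collection at 36 h. Other mouse embryos were exposed to 50 nM FK228 from the zygote on, or kept in KSOM culture medium with DMSO, and were taken at 36 h. Bovine embryos were exposed to 50 nM FK228 from the zygote on, or kept in BO-IVC medium with DMSO, and were taken at the 8/16-cell stage, 72 h after fertilization. The sources used here do not state which residues the mutants change, nor strain or breed. No deletion is described, so injected mRNA came on top of the embryo's own Hdac1 and Hdac2.

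Hdac1 and Hdac2 are histone deacetylases, which remove acetyl groups from histone tails, and FK228 (romidepsin) inhibits class I deacetylases. Kdm5b removes methyl groups from lysine 4 of histone H3. In mouse embryonic stem cells and in the inner cell mass, Pou5f1, Sox2 and Nanog form the core of a network that sustains pluripotency. Klf4, Klf5, Esrrb, Tfcp2l1, Tbx3 and Prdm14 support that network in the naive state, in part downstream of LIF and Wnt signalling, and Zfp42 (Rex1) is a widely used marker of the state. Embryonic genome activation takes place at the 2-cell stage in mouse and around the 8-cell stage in cattle.

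In the GRCm38 build with GENCODE gene models, all 10 members were protein-coding genes. Pou5f1 lay at chr17:35506018-35510772, Sox2 at chr3:34650405-34652461, Nanog at chr6:122707489-122714633 and Klf4 at chr4:55527143-55532466. Klf5 lay at chr14:99298691-99315036, Esrrb at chr12:86361117-86521628 and Tfcp2l1 at chr1:118627945-118685168. Tbx3 lay at chr5:119670669-119684724, Prdm14 at chr1:13113457-13127163 and Zfp42 at chr8:43295063-43306980. The annotation puts Sox2 inside Sox2ot, and Tbx3os1 and Gm19553 over Tbx3 and Pou5f1. Gm22094, Gm28882 and Gm23497 overlap Tfcp2l1. The library protocol describes no strand-marking step, so reads of these overlapping genes cannot be told apart.

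RefSeq promoter sequences (GRCm38.p6) were at hand for 7 of the 10 members, Klf5, Prdm14 and Tbx3 having no entry. The 250 bases before the transcription start are printed, 5′ to 3′ on the gene's strand, for 4 members that were higher in both mutant comparisons, Sox2 (chr3:34649745-34649994, plus strand), Klf4 (chr4:55532476-55532725, minus strand), Tfcp2l1 (chr1:118627695-118627944, plus strand) and Zfp42 (chr8:43307010-43307259, minus strand). The first Pou5f1 window (chr17:35505782-35506031, plus strand) is set beside them as a member that passed the test in neither. Capitals mark the GC box GGGCGG, the CCAAT box CCAAT, the TATA box TATAAA and the octamer ATGCAAAT, each searched on both strands.
Sox2: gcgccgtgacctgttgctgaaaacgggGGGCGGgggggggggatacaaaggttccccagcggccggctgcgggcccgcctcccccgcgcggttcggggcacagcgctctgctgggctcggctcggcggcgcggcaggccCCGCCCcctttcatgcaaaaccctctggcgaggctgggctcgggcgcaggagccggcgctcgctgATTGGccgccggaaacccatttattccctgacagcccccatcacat
Klf4: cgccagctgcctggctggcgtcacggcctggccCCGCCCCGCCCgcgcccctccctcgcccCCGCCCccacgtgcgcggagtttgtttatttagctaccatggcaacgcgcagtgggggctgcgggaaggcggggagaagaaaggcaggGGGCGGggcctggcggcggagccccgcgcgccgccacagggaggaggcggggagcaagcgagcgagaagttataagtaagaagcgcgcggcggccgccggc
Tfcp2l1: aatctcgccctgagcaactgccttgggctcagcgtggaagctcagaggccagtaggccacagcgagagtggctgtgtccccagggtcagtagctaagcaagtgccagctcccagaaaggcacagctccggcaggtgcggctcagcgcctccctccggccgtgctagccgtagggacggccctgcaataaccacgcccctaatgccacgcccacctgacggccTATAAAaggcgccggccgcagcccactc
Zfp42: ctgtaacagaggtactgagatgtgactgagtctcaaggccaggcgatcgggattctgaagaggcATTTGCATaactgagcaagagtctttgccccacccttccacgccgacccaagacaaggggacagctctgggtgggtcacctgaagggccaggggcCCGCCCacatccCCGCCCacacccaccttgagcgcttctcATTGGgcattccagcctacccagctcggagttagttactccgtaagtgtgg
Pou5f1: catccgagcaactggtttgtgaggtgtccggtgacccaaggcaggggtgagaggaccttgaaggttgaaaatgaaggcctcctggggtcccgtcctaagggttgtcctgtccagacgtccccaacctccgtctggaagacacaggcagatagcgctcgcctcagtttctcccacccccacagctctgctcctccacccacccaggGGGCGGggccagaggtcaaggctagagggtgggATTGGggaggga
The Klf4 window held 4 GC boxes, 2 of them overlapping by 1 base, and the Sox2 and Zfp42 windows held 2 each. The Pou5f1 window held 1 GC box and the Tfcp2l1 window 0. GC boxes were present in 32.7% of the 32851 mouse promoter windows of this length. CCAAT boxes, present in 33.8% of windows, were found once each in the Sox2, Zfp42 and Pou5f1 windows. The Tfcp2l1 window had a TATA box that began at position -28 (12.4% of windows), and the Zfp42 window had an octamer, the letters bound by Pou5f1 proteins, that began at -186 (1.6% of windows). The GC content was 74.0% for Klf4, 72.0% for Sox2, 65.2% for Tfcp2l1, 62.0% for Pou5f1 and 58.4% for Zfp42, against a median of 52.4%. These matches describe the letters only.

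Genes at 1 FPKM or more numbered 10704 to 14554 per library in mouse and 11598 to 12141 in cattle. Replicates correlated across genes with r from 0.93 (mutant Hdac1, late) to 0.99 in mouse and at 0.98 in cattle. FPKM keep no absolute depth, and the relative depth estimated from low genes ran from 0.66 to 1.32 of the median in mouse and from 0.914 to 1.07 in cattle. Hdac1 stood at 2833 and 4782 FPKM on average in the late libraries given WT and mutant Hdac1 mRNA, against 90.8 with water. In the early libraries the order was reversed, with 5886 for WT and 3479 for mutant. Injected and embryonic mRNA were not separated, and the part of these levels in the differences between stages was not tested. The libraries with mutant mRNA or FK228 at 36 h reached 1 FPKM in more genes (13412 to 14554) than the late control libraries (11284 to 12105). Whether replicates were separate cultures is not stated, so the p-values reflect library-to-library spread alone, possibly technical.

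Across the 18 late 2-cell libraries the members spanned a wide range of FPKM, a scale per transcript length. Pou5f1 had the highest median of the set, 108 FPKM (82.0 to 163), followed by Klf4 at 99.7 (39.9 to 178) and Klf5 at 62.1 (28.3 to 89.2). Tbx3 (median 27.3, range 19.6 to 50.5), Sox2 (25.6, 2.55 to 46.4), Zfp42 (22.5, 6.60 to 35.6) and Esrrb (18.0, 13.2 to 26.0) lay in the middle. Tfcp2l1 had a median of 4.12 (0.838 to 13.7), Nanog 0.717 (0 to 3.49) and Prdm14 0.411 (0.199 to 1.45). Among the 8 members with a median above 1 FPKM, the span from lowest to highest was widest relative to the level for Sox2 and Tfcp2l1 and narrowest for Esrrb and Pou5f1. In bulk embryos, fewer cells with a transcript and less transcript per cell cannot be told apart.

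**Figure D1:**
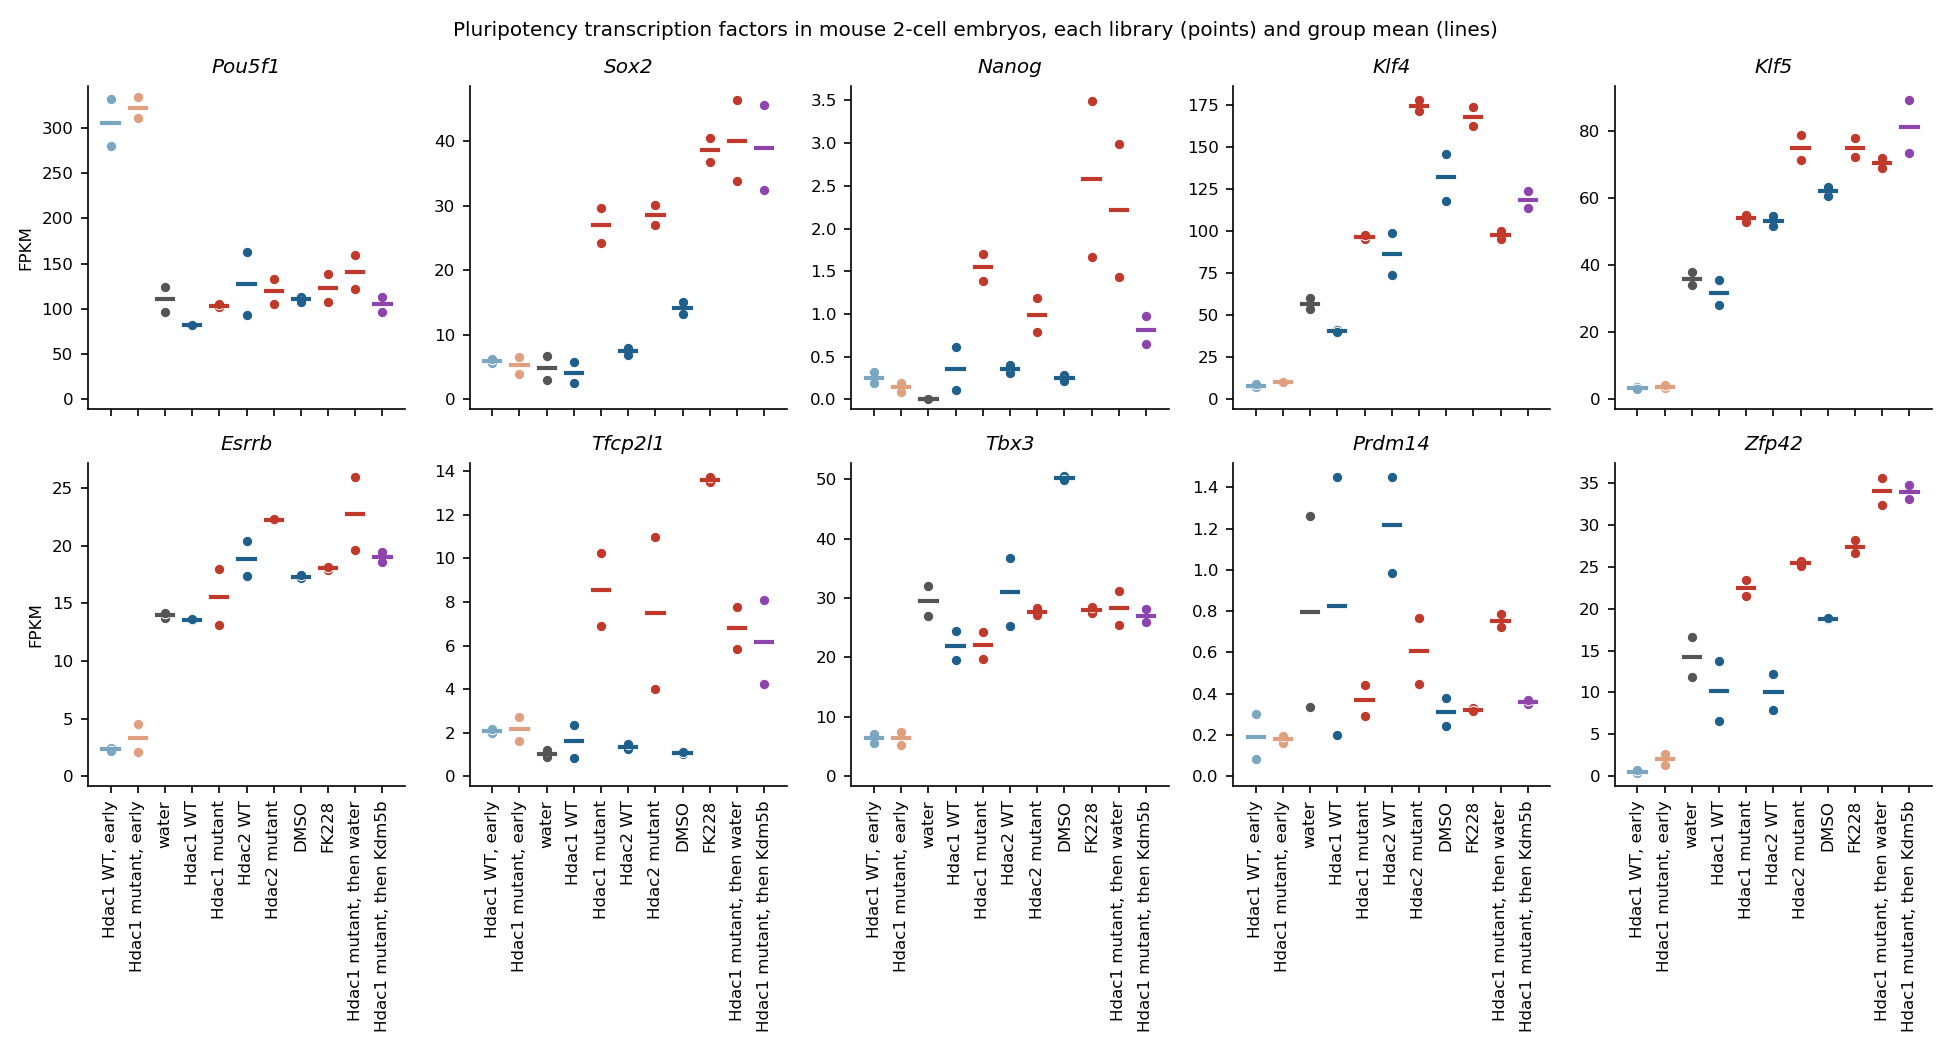
FPKM of each factor (y axis, one scale per panel) in the 11 mouse groups (x axis); points are libraries, lines are group means of 2 libraries, and all groups are late 2-cell unless marked early. Sox2 lies between 24.2 and 46.4 in every late library that received mutant Hdac or FK228, and at 15.1 or lower in the late control libraries.

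The first comparison asked how mutant Hdac1 changed the factors at the late 2-cell stage relative to WT Hdac1. Of the 10 members, 6 rose and 0 fell at an adjusted p under 0.05 (limma, Benjamini-Hochberg over all tested genes), where 30.5% of all tested genes rose and 21.6% fell. The median log2 change was 0.84 over the members and 0.17 over all genes tested. Sox2, Tfcp2l1, Nanog, Klf4, Zfp42 and Klf5 rose, while Pou5f1, Esrrb, Tbx3 and Prdm14 did not pass the test.

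Among the core factors, Sox2, the partner of Pou5f1 on DNA, was at 24.2 and 29.7 FPKM with mutant Hdac1 and at 2.55 and 5.75 with WT. Both mutant libraries were far above both WT libraries. The log2 change was 2.51 ± 0.32 (SE, n = 2 per group, adjusted p = 8.85e-06), with means of 27.0 ± 3.9 and 4.15 ± 2.26 (SD). Nanog, a homeodomain factor of the inner cell mass, was at 1.38 and 1.70 with the mutant and at 0.11 and 0.61 with WT, and was listed at 0 in both water libraries. These groups did not overlap, but the levels were low and the log2 change of 0.93 ± 0.27 (adjusted p = 0.00962) is small on a scale with 1 FPKM added. Nanog reached 1 FPKM only in libraries with mutant Hdac1, mutant Hdac2 or FK228, so it was tested because of those groups. Its call was lost in 4 of 10 alternatives. These were quantile normalization, the fit to only the groups compared, and the fits without mutant replicate 2 or without WT replicate 1. Pou5f1, which encodes Oct4, was at 102 and 105 with the mutant and at 82.4 and 82.0 with WT. The mutant libraries were higher, without overlap, but the log2 change of 0.33 ± 0.22 did not pass (adjusted p = 0.237). It passed when libraries were scaled by median ratios or by quantiles.

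Of the Krüppel-like factors, Klf4 was at 95.2 and 97.6 FPKM with mutant Hdac1 and at 41.1 and 39.9 with WT. Replicates lay close together, and the log2 change was 1.23 ± 0.15 (adjusted p = 4.02e-06). Klf5 was at 55.1 and 52.8 with the mutant and at 35.4 and 28.3 with WT, a log2 change of 0.75 ± 0.14 (adjusted p = 0.000361). Both factors were therefore well expressed in controls and rose by less than Sox2 on the log2 scale.

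Of the other naive factors, Tfcp2l1, which acts downstream of LIF in stem cells, was at 10.2 and 6.90 FPKM with the mutant and at 0.84 and 2.37 with WT (log2 change 1.92 ± 0.38, adjusted p = 0.000506). Zfp42 was at 21.5 and 23.5 against 6.60 and 13.7 (1.15 ± 0.28, adjusted p = 0.00269). In both genes the mutant libraries lay above the WT libraries, and the 2 WT libraries were themselves well apart. The Zfp42 call was lost without WT replicate 1, and the calls of both genes were lost when only the groups compared were fitted. Esrrb, an orphan nuclear receptor, was at 18.0 and 13.2 against 13.6 and 13.6 (0.17 ± 0.22, adjusted p = 0.552). Tbx3, a T-box factor, was at 19.8 and 24.3 against 19.6 and 24.4 (0.00 ± 0.20, adjusted p = 1.0). Prdm14, which restrains differentiation signals, was at 0.29 and 0.44 against 0.20 and 1.45 (-0.33 ± 0.29, adjusted p = 0.372). The groups overlapped in these last 3 genes, and for Prdm14 a single WT library held the high value. Prdm14 was called lower without WT replicate 1 and under quantile normalization. It reached 1 FPKM only in late control libraries given WT Hdac1, WT Hdac2 or water. Prdm14 was thus tested because of libraries in which it was high, so these calls support nothing further.

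With mutant against WT Hdac2, 5 of the 10 members rose and 0 fell, beside 30.8% and 22.2% of all tested genes. The members' median log2 change was 0.52 and that of all genes 0.14. Sox2 was at 30.2 and 26.9 FPKM with the mutant and at 7.87 and 6.94 with WT (1.81 ± 0.32, adjusted p = 0.000184). Klf4 was at 178 and 172 against 73.8 and 99.3 (1.02 ± 0.15, adjusted p = 2.33e-05), and Zfp42 at 25.7 and 25.1 against 7.95 and 12.2 (1.28 ± 0.28, adjusted p = 0.00111). The mutant libraries of these 3 genes agreed closely and were all above the WT libraries. Tfcp2l1 was at 3.98 and 10.99 against 1.26 and 1.46 (1.71 ± 0.38, adjusted p = 0.00122), with mutant libraries that differed widely. Klf5 was at 78.7 and 71.3 against 54.6 and 51.7 (0.49 ± 0.14, adjusted p = 0.00879), a call lost without mutant replicate 1 and without WT replicate 2. The remaining members did not pass. Nanog was at 0.79 and 1.19 against 0.31 and 0.40 (0.55 ± 0.27, adjusted p = 0.107), with groups that did not overlap. Pou5f1 was at 133 and 106 against 163 and 92.7 (-0.05 ± 0.22, adjusted p = 0.869), a sign that turned to a called 0.64 under quantile normalization. Esrrb (0.23 ± 0.22), Tbx3 (-0.14 ± 0.20) and Prdm14 (-0.46 ± 0.29) had adjusted p-values from 0.20 to 0.599.

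FK228, which blocks the enzymes chemically and without any injection, was compared with DMSO in mouse embryos of the same stage. Here 4 members rose and 1 fell, beside 31.0% and 26.3% of all tested genes, and the median log2 change was 0.31 for members and 0.15 for all genes. Tfcp2l1 was at 13.5 and 13.7 FPKM with FK228 and at 1.03 and 1.11 with DMSO (2.82 ± 0.38, adjusted p = 1.06e-05). Its replicates were tight, and its mean was 12.7 times the DMSO mean. Sox2 was at 36.8 and 40.5 against 15.1 and 13.2 (1.39 ± 0.32, adjusted p = 0.00158). Nanog was at 1.67 and 3.49 against 0.29 and 0.21 (1.47 ± 0.27, adjusted p = 0.000251). In both, the FK228 libraries were all above the DMSO libraries. Nanog was tested only because of libraries in which it was high, so its call supports nothing further. Klf4 was at 163 and 174 against 118 and 146 (0.35 ± 0.15, adjusted p = 0.0489), a call lost in 6 of 11 alternatives, among them those without either FK228 replicate or DMSO replicate 1.

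Tbx3 was the member that fell, at 27.4 and 28.5 FPKM with FK228 and at 50.5 and 49.8 with DMSO (-0.82 ± 0.20, adjusted p = 0.00198). The 2 DMSO libraries held the highest Tbx3 levels of all mouse libraries, and the FK228 level lay within the range of the other late groups. Under median-ratio or quantile scaling, which moved the median of all genes from 0.15 to 0.39 and to -0.04, the Tbx3 call was lost while Pou5f1, Klf5 and Zfp42 were called higher. Before such scaling Klf5 was at 72.2 and 78.0 against 60.8 and 63.4 (0.27 ± 0.14, adjusted p = 0.119), and Zfp42 at 28.2 and 26.7 against 18.8 and 18.9 (0.52 ± 0.28, adjusted p = 0.126). Neither pair of groups overlapped. Pou5f1 was at 139 and 107 against 113 and 108 (0.14 ± 0.22, adjusted p = 0.608). Esrrb (0.06 ± 0.22) and Prdm14 (0.01 ± 0.29) were near 0, with 95% intervals of -0.41 to 0.53 and -0.60 to 0.63.

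The effects of the perturbations were compared directly. The difference between the mutant Hdac1 and mutant Hdac2 effects passed the test for 0 of 10 members and for 0.104% of all tested genes, while 1658 genes had an unadjusted p under 0.05. For Sox2 the difference was 0.69, with a 95% interval of -0.27 to 1.66, and for Klf4 it was 0.21 (-0.23 to 0.65). Both intervals include differences of either sign. Between mutant Hdac1 and FK228, 1 of 10 members differed, beside 4.76% of genes in that direction and 2.2% in the other. Klf4 rose by 0.88 ± 0.21 more with mutant Hdac1 (adjusted p = 0.0204). That call was lost under median-ratio scaling and without either FK228 replicate or DMSO replicate 2. Tbx3 differed by 0.83 ± 0.28 (adjusted p = 0.0839) and Sox2 by 1.12 ± 0.45 (adjusted p = 0.147), which did not pass. The control levels of Klf4 were themselves apart, with means of 40.5 FPKM for WT Hdac1, 57.0 for water, 86.5 for WT Hdac2 and 132 for DMSO, and no overlap of libraries between neighbours in that order.

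**Figure D2:**
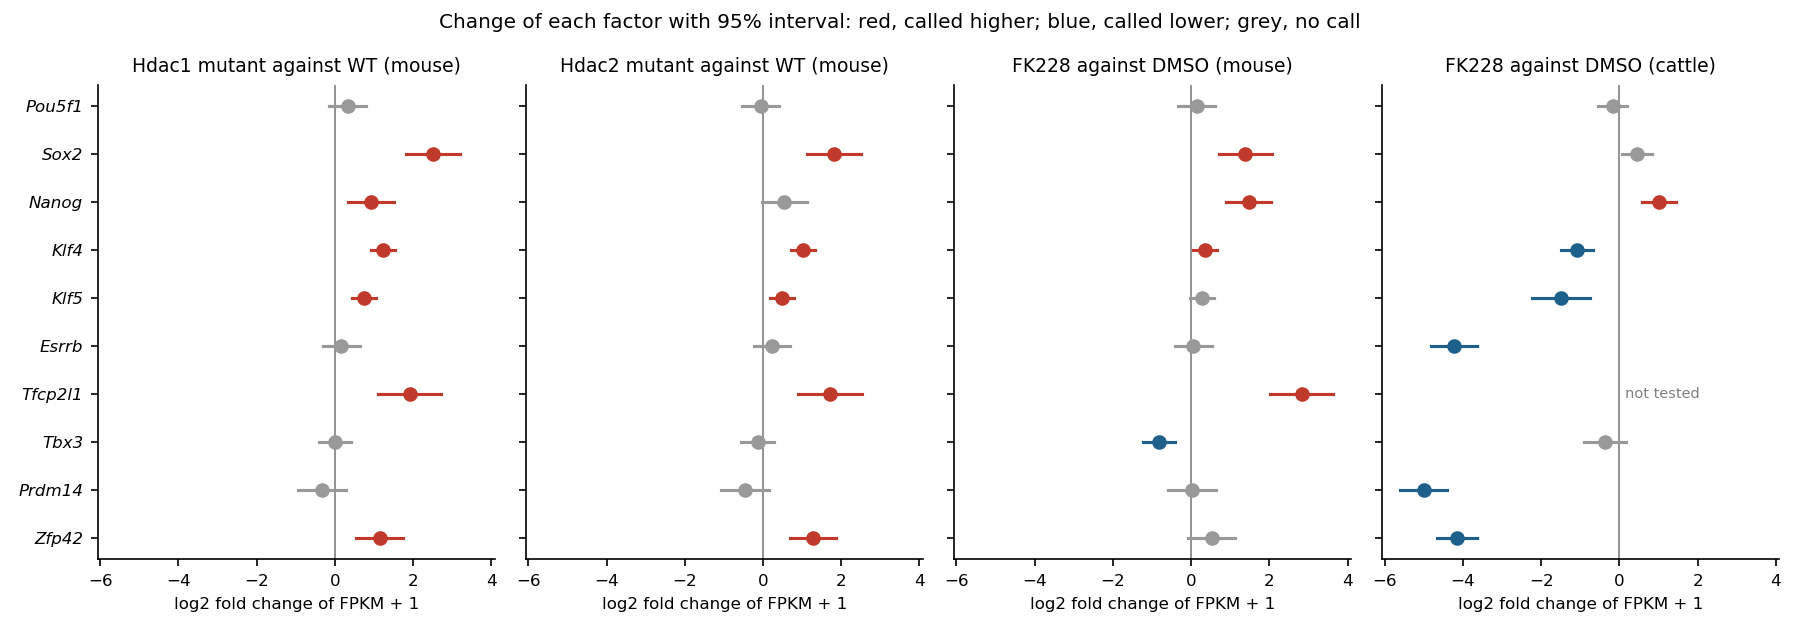
Log2 fold change of FPKM + 1 (x axis) of each factor (rows) in 3 mouse comparisons and in cattle, with 95% intervals from limma; red and blue mark calls at an adjusted p under 0.05. Sox2 and Tfcp2l1 lie to the right of 0 in all 3 mouse panels, whereas ESRRB, PRDM14 and ZFP42 lie at -4.1 or below in cattle.

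The 24 h and 36 h groups showed how the factors moved within the 2-cell stage in embryos with WT Hdac1. Of the 10 members, 5 rose and 1 fell, beside 28.8% and 28.1% of all tested genes. Klf5 went from 3.55 and 2.96 FPKM at 24 h to 35.4 and 28.3 at 36 h (2.94 ± 0.14, adjusted p = 1.18e-10), and Klf4 from 7.26 and 8.82 to 41.1 and 39.9 (2.20 ± 0.15, adjusted p = 3.23e-09). Zfp42 went from 0.33 and 0.72 to 6.60 and 13.7 (2.80 ± 0.28, adjusted p = 3.48e-07). Esrrb went from 2.49 and 2.22 to 13.6 and 13.6 (2.12 ± 0.22), and Tbx3 from 7.20 and 5.64 to 19.6 and 24.4 (1.63 ± 0.20), both with an adjusted p of 2.7e-06 or less. All late libraries of these 5 genes were above all early ones. Pou5f1 moved the other way, from 332 and 280 to 82.4 and 82.0 (-1.88 ± 0.22, adjusted p = 2.33e-06). Sox2 (5.63 and 6.27 to 2.55 and 5.75), Tfcp2l1 (1.98 and 2.17 to 0.84 and 2.37), Nanog and Prdm14 did not pass the test. Sox2 was called lower at 36 h under quantile normalization and without late WT replicate 2, and Prdm14 higher without late WT replicate 1. Prdm14 entered the test only through late control libraries in which it was high, so that call supports nothing further.

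At 24 h, mutant Hdac1 changed 0 of the 10 members and 0.56% of all tested genes (0.231% higher and 0.329% lower), with 1057 genes at an unadjusted p under 0.05. Zfp42 came nearest, at 1.39 and 2.68 FPKM against 0.33 and 0.72 (0.97 ± 0.28, adjusted p = 0.21). It was called higher with 0.1 FPKM added in place of 1. Sox2 was at 4.0 and 6.55 with the mutant and at 5.63 and 6.27 with WT, and Tfcp2l1 at 2.73 and 1.61 against 1.98 and 2.17. Both pairs of groups overlapped. The test of the difference between the effects at 36 h and 24 h passed for 5 members, all larger at 36 h, beside 21.2% of genes in that direction and 15.2% in the other. The difference was 2.68 ± 0.45 for Sox2 (adjusted p = 0.000295), 1.90 ± 0.53 for Tfcp2l1 (0.0113), 1.07 ± 0.39 for Nanog (0.0416), 0.94 ± 0.21 for Klf4 (0.00212) and 0.59 ± 0.20 for Klf5 (0.031). Those for Sox2 and Klf4 held in all 15 alternatives, whereas the others depended on single libraries. Nanog was lost in 9 of 14, among them those without any 1 of the libraries other than WT replicate 2 at 36 h. Klf5 was lost in 6 of 15, including those without mutant replicate 1 or WT replicate 2 at 36 h and without mutant or WT replicate 1 at 24 h. Tfcp2l1 was lost without WT replicate 1 at 36 h and without mutant replicate 2 at 24 h. Nanog also entered the test only through libraries in which it was high, so its difference supports nothing further. For Zfp42 the difference was 0.18, with a 95% interval of -0.66 to 1.02.

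**Figure D3:**
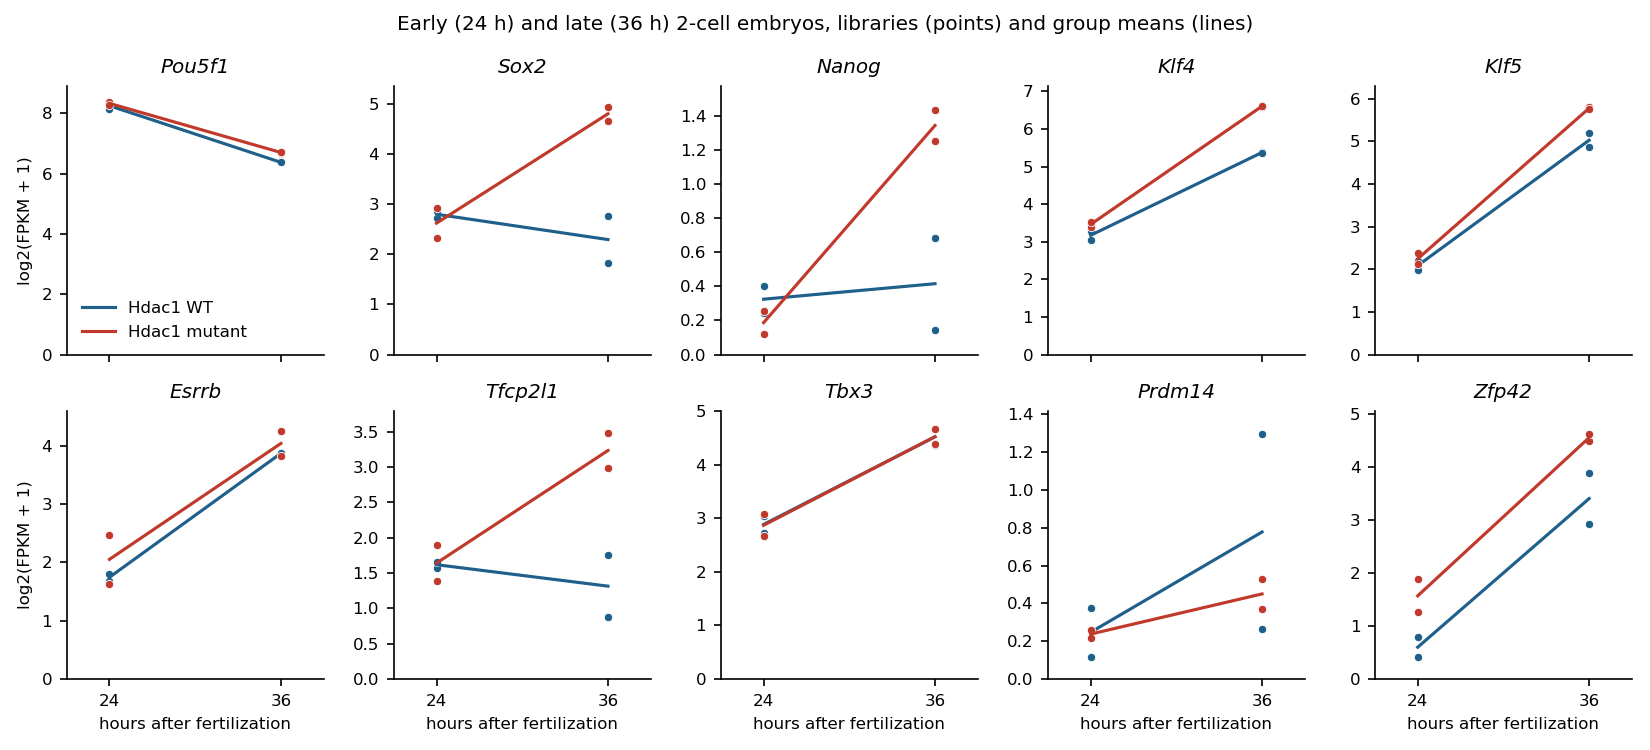
Log2(FPKM + 1) (y axis) against hours after fertilization (x axis) with WT or mutant Hdac1 mRNA; points are libraries and lines join group means of 2 libraries. Sox2, Tfcp2l1 and Nanog separate between WT and mutant at 36 h but not at 24 h, and Pou5f1 is lower at 36 h in both.

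Kdm5b mRNA given after mutant Hdac1 raised Kdm5b itself from 67.6 ± 9.0 to 616 ± 32 FPKM (SD, n = 2). It changed 0 of the 10 members relative to water given after mutant Hdac1, beside 1.04% of all tested genes (0.415% higher and 0.629% lower), and 2586 genes had an unadjusted p under 0.05. Nanog was at 0.65 and 0.97 FPKM with Kdm5b and at 2.99 and 1.43 with water (-0.79 ± 0.27, adjusted p = 0.171), without overlap. Sox2 was at 32.5 and 45.6 against 33.8 and 46.4, a difference of -0.04 with a 95% interval of -0.73 to 0.64. Zfp42 was at 33.0 and 34.8 against 35.6 and 32.4, and Tfcp2l1 at 8.09 and 4.25 against 7.75 and 5.87. The groups overlapped in these 3 genes. Klf4 was at 114 and 124 against 95.4 and 100 (0.28 ± 0.15, adjusted p = 0.395) and Pou5f1 at 97.1 and 113 against 122 and 160 (-0.41 ± 0.22, adjusted p = 0.409), both without overlap and neither past the test.

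Injected WT mRNA was compared with injected water at 36 h. WT Hdac1 changed 0 of 10 members (2.19% of genes passed, and 2739 had an unadjusted p under 0.05). The nearest was Klf4, at 41.1 and 39.9 FPKM with WT Hdac1 and at 60.5 and 53.5 with water (-0.48 ± 0.15, adjusted p = 0.105). With WT Hdac2, 2 members were higher than with water, beside 6.59% of genes (2.86% were lower). Klf4 was at 73.8 and 99.3 (0.58 ± 0.15, adjusted p = 0.0199) and Klf5 at 54.6 and 51.7 against 37.9 and 34.0 (0.55 ± 0.14, adjusted p = 0.0227). The Klf4 call was lost without water replicate 2 or WT replicate 2, and the Klf5 call without any 1 of the 4 libraries. Sox2 was at 2.99 and 6.78 with water, a range that the WT Hdac1 libraries overlapped.

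In bovine 8/16-cell embryos FK228 was compared with DMSO, and 1 of 9 members tested rose while 5 fell. Of all genes tested, 22.2% rose and 27.4% fell. The members' median log2 change was -1.08 and that of all genes 0.06. PRDM14 was at 1.38 and 0.84 FPKM with FK228 and at 82.5 and 52.6 with DMSO (-5.00 ± 0.26, adjusted p = 2.09e-05). ESRRB was at 1.43 and 2.63 against 63.3 and 47.2 (-4.23 ± 0.25, adjusted p = 2.72e-05), and ZFP42 at 1.80 and 1.27 against 50.0 and 38.2 (-4.15 ± 0.22, adjusted p = 2.4e-05). These 3 transcripts were abundant in both control libraries and at 2.63 FPKM or lower in both treated ones, with mean ratios of 61.0, 27.2 and 28.7.

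The bovine Krüppel-like factors fell by less. KLF4, the most abundant member in cattle, was at 261 and 211 FPKM with FK228 and at 550 and 451 with DMSO (-1.08 ± 0.18, adjusted p = 0.00163). KLF5 was at 15.8 and 7.44 against 39.2 and 27.1 (-1.50 ± 0.33, adjusted p = 0.00573), a call lost when no filter on low values was used. All treated libraries were below all control libraries in both genes. NANOG was the member that rose, at 29.6 and 27.9 against 15.4 and 12.1 (1.02 ± 0.19, adjusted p = 0.00265). SOX2 was at 63.2 and 53.7 against 43.0 and 41.9 (0.45 ± 0.17, adjusted p = 0.0526), without overlap, and was called higher under quantile normalization, with the replicate number as a block and without FK228 replicate 2. That library held a single uncharacterized gene, LOC112442485, at 23828 FPKM, and its 10 highest genes took 13.7% of the summed FPKM, against 4.45% to 6.67% in the other bovine libraries. The 6 calls were also made without it. POU5F1 was at 55.3 and 60.5 against 65.0 and 65.9 (-0.18 ± 0.16, adjusted p = 0.379) and TBX3 at 34.3 and 21.9 against 39.1 and 32.2 (-0.36 ± 0.23, adjusted p = 0.229). TBX3 was called lower without FK228 replicate 1. TFCP2L1, too low to pass the filter, was at 0.10 and 0.14 against 0.54 and 0.49. With no filter on low values, 10 members were tested and 5 were again called lower, TFCP2L1 in place of KLF5. Beside them, 2971 of 21577 genes were called lower.

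**Figure D4:**
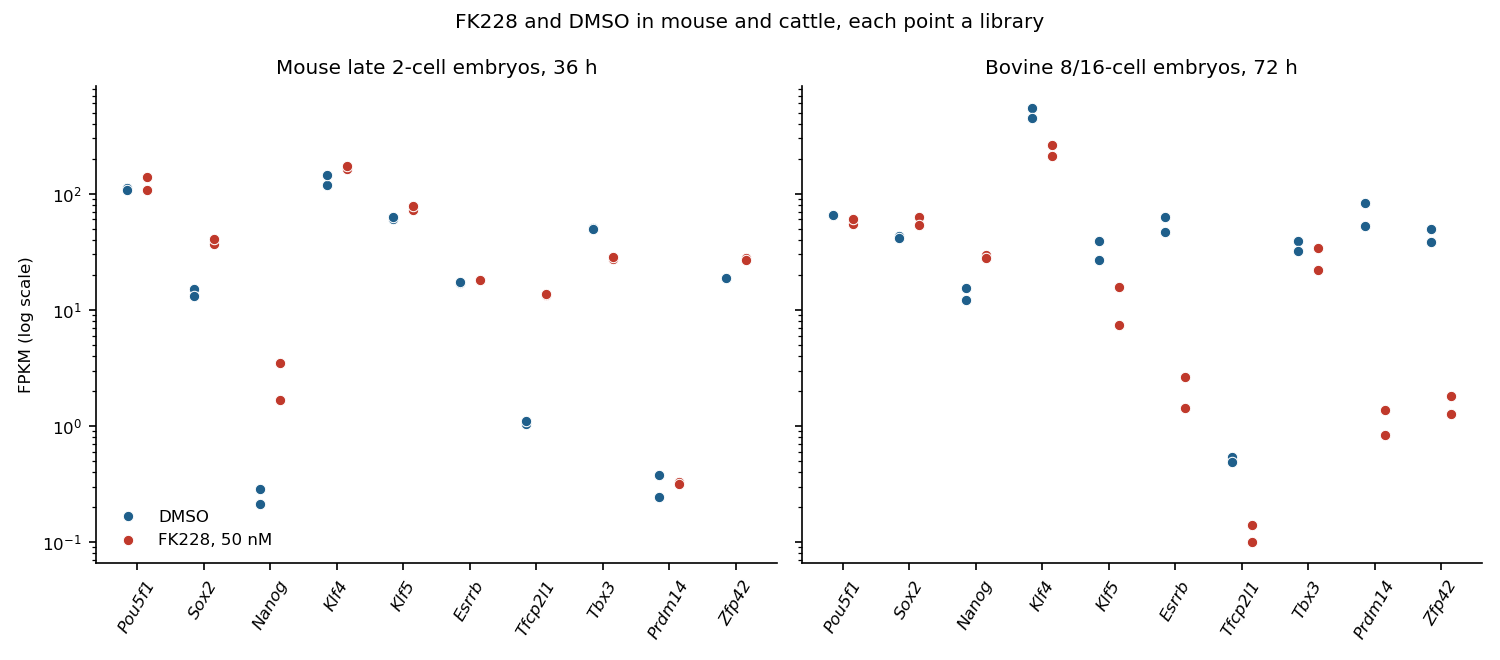
FPKM (log y axis) of each factor (x axis) with FK228 (red) or DMSO (blue) in mouse late 2-cell (left) and bovine 8/16-cell embryos (right); each point is a library and symbols follow mouse spelling. Klf4 with FK228 lies above DMSO in mouse and below it in cattle, and Nanog lies above DMSO in both species.

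The direction under FK228 was then set side by side for the 9 members tested in both species, at the same dose but at different stages and times. The sign was the same for 3 of the 9, Nanog, Sox2 and Tbx3. Over the 9850 genes tested in both species and matched by symbol, 63.6% had the same sign. Klf4 was called higher in mouse and lower in cattle (0.35 and -1.08), and the mouse call was lost in 6 of 11 alternatives. Members called in opposite directions numbered 1, and they numbered 0 with 0.1 FPKM added and without mouse FK228 replicate 1 or 2 or mouse DMSO replicate 1, and 3 under median-ratio or quantile scaling. With no filter on low values the count stayed at 1, but the member was Tfcp2l1, below 1 FPKM in cattle, in place of Klf4. Nanog had log2 changes of 1.47 in mouse and 1.02 in cattle, but in mouse it entered the test only through libraries in which it was high. The mouse call of Nanog therefore supports nothing further. Among 3398 genes called in both species, 24.8% had opposite directions. Esrrb, Prdm14 and Zfp42, which fell by more than 4 on the log2 scale in cattle, changed by 0.06, 0.01 and 0.52 in mouse, none past the test. Klf5 changed by 0.27 in mouse, not past the test, and by -1.50 in cattle. Prdm14 was at 0.38 FPKM or lower in all 4 mouse FK228 and DMSO libraries, so that a fall could hardly have been seen there, whereas Zfp42 and Esrrb were at 17.2 FPKM or higher in the mouse DMSO libraries. The same-sign count was 5 under quantile normalization and 4 without mouse FK228 replicate 1 or mouse DMSO replicate 1. With a minimum of 5 FPKM it was 2 of 7. For mouse changes near 0, as in Esrrb and Prdm14, the sign says little. No test of the difference between species was made, as the values were normalized separately.

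Other genes of the network were counted from lists, to be read beside the shares of all tested genes, which with mutant Hdac1 were 30.5% higher and 21.6% lower. With mutant Hdac1, 6 of 14 partner transcription factors rose and 4 fell (median log2 change 0.50, against 0.17 for all genes). Mycn, a Myc family factor, stood at 36.6 ± 8.4 FPKM with mutant against 1.45 ± 0.87 with WT (log2 change 3.97) and Foxd3 at 14.6 ± 2.8 against 0.153 ± 0.027 (3.75). Klf17 (34.0 ± 3.2 against 140 ± 15, -2.01) and the nuclear receptor Nr5a2 (18.6 ± 3.7 against 71.9 ± 5.3, -1.90) were the partners that fell most. Of 10 LIF and Wnt genes 5 rose, led by the LIF receptor Lifr (3.06) and the kinase Jak1 (1.50), and 2 fell, β-catenin (Ctnnb1, -1.40) and Gsk3b (-0.95). Of 12 network targets 3 rose, among them Utf1 (2.84), and 6 fell, among them Fbxo15 (-2.13) and Dppa3 (-1.81), with a median of -0.34. The share of targets that rose was near that of all genes, and the share that fell was above it. With mutant Hdac2, 3 of the 12 targets rose and 6 fell. With FK228, 5 rose and 5 fell, beside 31.0% and 26.3% of all genes.

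Genes of other states were counted in the same way. All 7 formative and primed genes rose with mutant Hdac1 (median 1.41), with Sox3 at 3.29 and the DNA methyltransferase Dnmt3b at 1.55. Of 9 trophectoderm genes 7 rose, led by Krt18 (4.74) and Krt8 (3.83), and Tead4 fell (-1.15), with a median of 3.26. Of 6 primitive endoderm genes 5 rose, led by Sox17 (4.34), and Gata4 fell (-1.86), with a median of 2.33. Counts with mutant Hdac2 were 7 and 4 of 14 partners, 3 and 6 of 12 targets, 6 and 0 of 7 formative genes, 7 and 1 of 9 trophectoderm genes and 5 and 1 of 6 primitive endoderm genes, higher and lower in turn, where 30.8% and 22.2% of all genes passed. With FK228 in mouse they were 5 and 4, 5 and 5, 6 and 0, 7 and 1, and 5 and 1, beside 31.0% and 26.3% of all genes. Of the 10 LIF and Wnt genes, 5 rose and 2 fell with mutant Hdac2, and 5 rose and 3 fell with FK228. Between 24 h and 36 h with WT Hdac1, 7 partners rose and 1 fell, 2 LIF and Wnt genes rose and 6 fell, and 5 targets rose and 4 fell, beside 28.8% and 28.1% of all genes. In the same interval 2 formative genes rose and 2 fell, 3 trophectoderm genes rose and 2 fell, and 1 primitive endoderm gene rose. At 24 h with mutant Hdac1, 1 trophectoderm and 1 primitive endoderm gene rose and the other 4 lists had 0 calls, where 0.231% of all genes rose and 0.329% fell. With Kdm5b, the one gene called on any of these 6 lists was Krt8, which fell by 1.41 on the log2 scale (adjusted p = 0.0132), where 0.629% of all genes fell.

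In cattle 22.2% of all genes rose with FK228 and 27.4% fell. Of 12 partners 8 fell and 1 rose (median -1.08, against 0.06 for all genes), with MYC at -1.89, FOXD3 at -1.80 and GBX2 at 1.81. Of 6 targets 1 rose and 2 fell, TDH (-2.01) and UTF1 (-0.99). Of 9 trophectoderm genes 2 rose, EOMES (1.59) and CDX2 (0.78), and 3 fell, among them TFAP2C (-1.55), shares near those of all genes. Of 5 primitive endoderm genes 1 rose and 2 fell, GATA6 (-2.96) and PDGFRA (-1.55). Of 9 LIF and Wnt genes 1 rose and 1 fell, and of 5 formative and primed genes 2 rose, POU3F1 (1.33) and DNMT3B (0.68), and OTX2 fell (-0.99). Foxd3 was thus called higher in all 3 late mouse comparisons and lower in cattle. Its mean with WT Hdac1 in mouse was below the 1 FPKM of the filter. It may have entered the mouse test through libraries in which it was high, so those calls support nothing further.

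Marker lists of other cell types and stages were read beside these results. Oocyte and cleavage markers were present throughout, their summed FPKM being 594 to 852 in late mouse libraries with mutant mRNA or FK228, 995 to 1530 in late controls, 3750 to 4090 at 24 h, 1260 to 1430 in bovine controls and 1780 to 1790 with FK228 in cattle. Blastocyst markers summed to 83.4 to 128 in the late mutant and FK228 libraries and to 16.7 to 26.4 in late controls in mouse. With mutant Hdac1, 5 of the 6 were higher and 1 was lower, beside 30.5% and 21.6% of all tested genes. All 6 of these markers also stand on the target, trophectoderm or primitive endoderm lists. In cattle they summed to 24.5 to 30.9 with FK228 and 63.3 to 66.0 with DMSO, TDGF1 being listed at 0 with FK228. Blood markers summed to 100 to 216 in the late mutant and FK228 libraries and to 4.72 to 18.3 in late mouse controls. Of the 10 listed, 7 were tested, and 7 were higher with mutant Hdac1, 6 with mutant Hdac2 and 5 with FK228. Beside them, 30.5%, 30.8% and 31.0% of all tested genes rose. At such low control levels the markers could enter the test through libraries in which they were high, so these counts support nothing further. The β-globin genes Hbb-bs and Hbb-bt and the leukocyte gene Ptprc were listed at 0 in both mutant Hdac1 libraries. Bovine blood markers summed to 130 to 158 with FK228 and to 16.1 to 21.5 with DMSO, ALAS2 being listed at 0 with FK228. Cumulus markers summed to 13.9 to 31.0 in the late mutant and FK228 libraries and to 32.9 to 70.4 in late controls in mouse. In cattle they summed to 54.1 to 66.1 with FK228 and 40.1 to 42.8 with DMSO. Sperm markers summed to 8.66 or less in every mouse library and to 8.02 or less in cattle. The part of these markers in the changes of the 10 factors was not tested.

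The genes whose pattern was most like each member over the 22 mouse libraries are given as a description. The libraries share 2 stages, and the correlation over the 18 late libraries is given after the overall one. Tm2d2 was most like Sox2 (r = 0.975 and 0.975), Stc2 most like Tfcp2l1 (0.964 and 0.968) and Arf2 most like Zfp42 (0.984 and 0.951). Fam214b was most like Klf4 (0.989 and 0.949), with the paralog Klf2 next (0.987 and 0.952), and Aacs most like Klf5 (0.995 and 0.939). Etv5 was most like Esrrb (0.98 and 0.821), Nyap1 most like Tbx3 (0.985 and 0.908) and Umodl1 most like Pou5f1 (0.979 and 0.873). Nanog and Prdm14 were too low for this description. Among the other 8 members, Sox2 and Zfp42 were the most alike pair over the late libraries (r = 0.92), followed by Klf4 and Klf5 (0.90) and by Sox2 and Klf5 (0.867).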

How the data were processed

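PolyA RNA was sequenced from whole embryos, 2 libraries per group. The authors deposited FPKM for each gene, with separate tables for mouse and cattle. The submitters' processing notes name DESeq2, Cufflinks, featureCounts, HISAT2 and Trimmomatic, and the builds GRCm38 and ARS-UCD1.2, with no version or role. FPKM are relative to each library's total, so a shift in abundant genes moves all values.

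Genes with at least 1 FPKM in at least 2 libraries were analysed as log2(FPKM + 1), which understates changes of low genes. limma 3.58.1 (R 4.3.3, trended empirical Bayes) modelled the group means of the 22 mouse libraries together, on 11 residual degrees of freedom, and those of the 4 bovine libraries on 2, with Benjamini-Hochberg adjustment over all tested genes. On simulated data, changes of 2 on the log2 scale were recovered for 97% of genes (mouse FK228) and 96% (cattle), and changes of 1 for 31% and 15%. Only 100 genes of each size were changed there, all well expressed, whereas far more genes passed in the data. The adjustment was therefore stricter in the simulation, and its rates do not carry over to these comparisons or to low members. Depth is unknown, so no counting intervals were computed. The 10 members were named in every comparison. From each other list, up to 2 called genes each way were eligible, ranked by log2 change, with groups that did not overlap and a mean of at least 5 FPKM. The members and lists were chosen with earlier results of these data known. Alternatives were another pseudocount, filters, scalings, a replicate block, fits to the compared groups only and leaving out each library.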

Additional observations from a re-analysis of the deposited data

Results flagged for a closer look

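The effect of mutant Hdac1 relative to WT differed between 36 h and 24 h for 5 members by a test of the difference itself (limma, 2 libraries per group, adjusted over all tested genes). The difference of log2 changes, 36 h minus 24 h, was 2.68 for Sox2, 1.90 for Tfcp2l1, 1.07 for Nanog, 0.94 for Klf4 and 0.59 for Klf5. Nanog was at 0.61 FPKM or lower in the libraries of 3 of the 4 groups involved. It reached 1 FPKM only in libraries with mutant Hdac1, mutant Hdac2 or FK228. It was thus tested because of libraries in which it was high, and its difference supports nothing further.

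Klf4 also differed between perturbations. Its log2 change was 0.88 larger with mutant Hdac1 than with FK228, on control levels of 40.5 FPKM (WT Hdac1) and 132 FPKM (DMSO).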

How the results depend on the processing

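The numbers of members called are given here, under alternatives chosen with the design. Fitting only the groups compared gave 3 calls for mutant Hdac1 at 36 h, against 6 with the settings reported. Nanog, Tfcp2l1 and Zfp42 were lost. The same fit gave 0 for WT Hdac2 against water (2 as reported) and 0 for mutant Hdac1 minus FK228 (1). Calls among all 17336 tested genes fell as well, from 9027 to 5304, from 1638 to 0 and from 1208 to 6 in turn. Median-ratio scaling gave 7 for mutant Hdac1, all higher, and quantile scaling gave 7, with 6 higher and 1 lower. Of all genes, 9404 and 8732 were called there. A minimum of 5 FPKM gave 5 of the 8 members still tested, beside 6939 of 11447 genes. Median-ratio scaling also gave 0 for mutant Hdac1 minus FK228, beside 928 of all genes (1208). With 0.1 FPKM added, 1 member was called at 24 h (0), beside 300 of all genes (97). Leaving out a library gave 0 to 1 calls for WT Hdac2 against water, 3 to 4 for the difference between stages (5) and 0 to 2 for mutant Hdac1 minus FK228. Where this left 1 library in a group, it was assumed to vary like the others. Quantile normalization gave 5 members of the same sign in both species (3) and turned Pou5f1 with mutant Hdac2 from -0.05 to 0.64. Of 962 uncalled values, 83 changed sign. Over the alternatives run, Sox2, Klf4 and Klf5 with mutant Hdac1, Sox2, Klf4, Zfp42 and Tfcp2l1 with mutant Hdac2, Sox2 and Tfcp2l1 with FK228 in mouse, and NANOG, KLF4, ESRRB, PRDM14 and ZFP42 in cattle stayed past the threshold in the same direction.

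Scaling moved the share of calls that were higher among all genes from 58.5% to 65.2% and 48.0% for mutant Hdac1, from 58.1% to 66.8% and 48.2% for mutant Hdac2 and from 54.1% to 65.4% and 49.7% for FK228 in mouse (median-ratio and quantile). It moved from 39.8% to 17.0% for Kdm5b and from 69.8% to 58.0% for WT Hdac2 against water (median-ratio). It moved from 16.1% to 30.2% and 34.0% for WT Hdac1 against water, from 68.4% to 52.0% and 52.9% for mutant Hdac1 minus FK228 (median-ratio and quantile), and from 41.2% to 51.7% at 24 h (quantile). The median of all genes moved from 0.17 to 0.30 and -0.06 for mutant Hdac1 and from 0.14 to 0.31 and -0.06 for mutant Hdac2.

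Same-numbered libraries correlated in their deviations with r from -0.089 to 0.175 over 55 pairs of mouse groups and with 0.233 in the pair in cattle, and the labels give no shared batch. With a replicate block, 6, 5 and 5 members were called for mutant Hdac1, mutant Hdac2 and FK228 in mouse, and 7 in cattle (6), where SOX2 was gained. Calls among all tested genes numbered 9070, 9200, 9937 and 6897 in turn, against 9027, 9183, 9924 and 6240 as reported. With 2 libraries per group and low FPKM, changes of Nanog, Prdm14 and TFCP2L1 are poorly resolved.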
